A study of Mus musculus with 38 samples.

Results

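The immediate early genes Fos, Fosb, Jun, Junb, Egr1, Egr2, Ier2, Ier3, Dusp1 and Nr4a1 were followed through the MMTV-PyMT model of mouse breast cancer. They were taken by name from the arrays, where every probe that was not a control and carried one of these gene names was used, which gave 10 of 28786 genes, 12 of 41174 probes and 39 of 43379 spots. Expression was measured on 38 two-color Agilent arrays, on which Cy5-labeled RNA of a sample was hybridized against a Cy3-labeled pooled mouse reference RNA, so each value is a log2 ratio of sample to reference and levels of different genes cannot be set against each other. The tumors grew from focal hyperplasias of MMTV-PyMT;actin-GFP mice, in which the MMTV promoter drives the polyoma middle T oncogene in mammary epithelium, which were moved into mammary fat pads of young female FVB/n hosts that carry neither transgene. The methods give digestion with collagenase and dispase for the tumors of the chemotherapy experiment and for the lungs, and GFP-positive tumor cells were sorted before RNA was taken. These genes also respond to dissociation and sorting. No undissociated sample was analysed here, and the part of dissociation in any level was not tested.

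The progression experiment held 5 adenomas, which were outgrowths taken early, 6 carcinomas taken late, 6 samples of disseminated tumor cells from lungs, for which lungs of several mice were pooled, and 5 lung metastases, from mice whose primary tumor had been removed. No chemotherapy is given for these samples, and their RNA went through a second round of amplification. The chemotherapy experiment held 6 untreated tumors, 6 residual tumors and 4 relapsed tumors, which the labels call control, regressed and resistant. Early carcinomas were treated from 2 months after transplantation with docetaxel, doxorubicin and cyclophosphamide; residual tumors were taken after the first dose, and relapsed tumors after repeated dosing. The methods call the samples biological. They give a range of mice for the pooled lungs, but not how many donor hyperplasias or hosts each group came from. The p-values therefore measure the spread between these samples. The experiments were normalized and fitted apart.

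Immediate early genes are transcribed within minutes of a stimulus without new protein synthesis, because the factors that read the stimulus, such as SRF with its ternary complex partners and CREB, are already present. Growth factor, stress and calcium signals reach them through MAP kinases, and their products include transcription factors of the AP-1 and EGR families as well as inhibitors such as Dusp1 that switch the kinases off again. In myeloid cells the same genes are induced by inflammatory signals, and in solid tissue they are known to be induced by enzymatic digestion.

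The promoters of the 3 members that were higher in disseminated cells than in carcinomas are shown, because these 3 moved together in that comparison. RefSeq start sites of build GRCm38.p6 gave windows of 300 bases, 250 before and 50 after the start, for 8 of the 10 members. The stretches below are the 200 bases before a start, 5′ to 3′ on the gene's strand, and capitals mark matches on either strand to the CRE half-site TGACG, which binds CREB family factors, to the full CRE TGACGTCA, which contains it, or to the CArG box, the site of SRF. They lie at chr10:67537669-67537868 on the plus strand for Egr2, chr8:84978749-84978948 on the minus strand for Junb and chr17:26508473-26508672 on the minus strand for Dusp1.
Egr2: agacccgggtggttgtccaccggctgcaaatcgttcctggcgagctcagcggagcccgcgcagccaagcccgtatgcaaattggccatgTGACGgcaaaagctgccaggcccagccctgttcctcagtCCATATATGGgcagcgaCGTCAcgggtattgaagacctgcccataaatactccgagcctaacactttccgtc
Junb: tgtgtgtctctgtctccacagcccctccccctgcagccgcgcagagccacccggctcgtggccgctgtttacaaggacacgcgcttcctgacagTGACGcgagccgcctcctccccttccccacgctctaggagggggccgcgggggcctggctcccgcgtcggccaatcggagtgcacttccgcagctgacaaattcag
Dusp1: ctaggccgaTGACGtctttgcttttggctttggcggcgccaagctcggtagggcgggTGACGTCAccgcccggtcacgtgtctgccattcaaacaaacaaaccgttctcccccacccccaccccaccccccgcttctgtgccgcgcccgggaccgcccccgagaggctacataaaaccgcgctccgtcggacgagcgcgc
The CRE half-site was found in windows of 6 of the 8 members and in 20.8% of all 32851 promoter windows. The full CRE was found for 1 member, Dusp1, against 1.79% of all windows, and the CArG box for 1, Egr2, against 1.63%. The AP-1 site TGANTCA was found in no member's window and in 7.81% of all windows, and the EGR site GCGNGGGCG for 2 members, Fosb and Nr4a1, against 5.55%. These are matches of letters in short windows, and binding was not measured. For Egr2, 5 start sites are annotated, and the stretch precedes the first of the 3 whose windows hold the most matches.

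The labelled cell type was checked against marker lists. In the chemotherapy experiment the mean log2 ratio of 14 mammary epithelial markers was between 4.38 and 4.94 in every sample, and all 14 were well above background. In the progression experiment it was 2.99 ± 0.25 (SD, n = 5) in adenomas and 3.18 ± 0.61 (n = 6) in carcinomas, 1.66 ± 1.14 (n = 6) in disseminated cells and 2.95 ± 1.46 (n = 5) in metastases. The mean of 12 macrophage markers was -0.10 to 0.42 in adenomas and 2.99 to 4.81 in disseminated cells, 0.99 to 5.27 in metastases, and -0.36 to 0.63 in carcinomas 1 to 5. Carcinoma replicate 6 stood apart from its group, with 4.51 for macrophage markers and 2.00 for mammary epithelial markers against 3.06 to 3.55 in the other carcinomas. Metastases replicate 4 stood apart for mammary epithelial markers, with 0.46 against 3.17 to 4.26 in the other metastases; its macrophage mean of 5.27 was the highest of a group that was spread, with 3.53 and 4.40 in replicates 1 and 3. In disseminated cells against carcinomas 8 of 12 macrophage markers, 7 of 9 alveolar macrophage markers and 9 of 12 neutrophil markers were called higher (a gene is called here where limma's test over all genes gave an adjusted p under 0.05 with 2-fold or more between the means), and 4 of 14 mammary epithelial markers were called lower. Markers of other cells were also called higher there, 5 of 9 for lung epithelium, 4 of 9 for endothelium, 4 of 10 for T and NK cells, 2 of 6 for B cells and 2 of 5 for erythroid cells, and 0 of 9 for fibroblasts. The mean of the lung epithelial markers was 2.51 ± 0.62 (SD, n = 6) in disseminated cells, 1.82 ± 0.44 (n = 5) in metastases and 0.81 ± 0.22 (n = 6) in carcinomas. Lyz2, a lysozyme of macrophages and neutrophils, was 5.47 ± 1.23 (SE) higher on the log2 scale, and the epithelial keratin Krt8 fell by 3.34 ± 1.10. In bulk RNA, fewer cells of a type and less RNA per cell cannot be told apart. With carcinoma replicate 6 and metastases replicate 4 both left out, a choice made after seeing the data, the counts for disseminated cells against carcinomas were 11 of 12, 7 of 9 and 9 of 12 higher and 8 of 14 lower. For the members, values without these replicates are given below where they change a call, and for the lists in some of the comparisons. The share of all genes called in the fits without these replicates is not given. A change of a list count there cannot be read as particular to the list. The part of other cell types in the changes was not tested. Adenoma replicates 3 and 4 stood apart by their arrays, with 51.1% and 48.4% of spots well above background, where carcinomas had 67.5% to 76.7%. They also had the lowest mean over the members of their group, 0.55 and 0.37, and the comparisons with adenomas are given without them where a call changes.

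Across tumor progression the 10 members did not move as a block. Egr2, Junb and Dusp1 were higher in disseminated cells than in carcinomas, Dusp1 was also called higher in disseminated cells than in adenomas, Nr4a1 was called higher in carcinomas than in adenomas, and Ier3 was called lower in metastases than in carcinomas. The calls of Dusp1 against adenomas, of Nr4a1 and of Ier3 were each lost when some single samples were left out. A count of 1 in 10 members was near the share of all genes called for the Dusp1 and Ier3 comparisons (9.69% and 10.1%). For the Nr4a1 comparison that share was 3.23%. Fos, Fosb, Jun, Egr1 and Ier2 were called in none of the 6 comparisons with all samples. The mean log2 ratio over the 10 members was 0.99 ± 0.54 (SD, n = 5) in adenomas, 1.06 ± 0.32 (n = 6) in carcinomas, 1.23 ± 0.47 (n = 6) in disseminated cells and 1.24 ± 0.43 (n = 5) in metastases, and the 4 ranges overlapped.

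Each count of calls was read against the share of all genes called in the same comparison. Between disseminated cells and carcinomas 3 of 10 members were called, all higher, where 11.1% of all genes were called and 5.61% were called higher. Between disseminated cells and adenomas 1 member was called higher, where 9.69% of genes were called and 4.68% were higher. Between metastases and carcinomas 1 was called lower, where 10.1% were called and 4.31% were lower, and between carcinomas and adenomas 1 was called higher, where 3.23% were called and 1.21% were higher. Metastases against adenomas gave 0 of 10 members called where 14.5% of genes were, and metastases against disseminated cells 0 of 10 where 7.5% were. In these last comparisons 3 and 4 members had an unadjusted p below 0.05 in limma's test, where 39.5% and 27.4% of genes did. Carcinomas and metastases were on 3 slides scanned on 1 day, and adenomas and disseminated cells on another 3 slides scanned on another, so disseminated cells shared slides with adenomas and metastases with carcinomas, although the fit had no term for the slide; in the other 4 comparisons group and slide cannot be told apart. Comparisons that share a group share its samples.

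**Figure D1:**
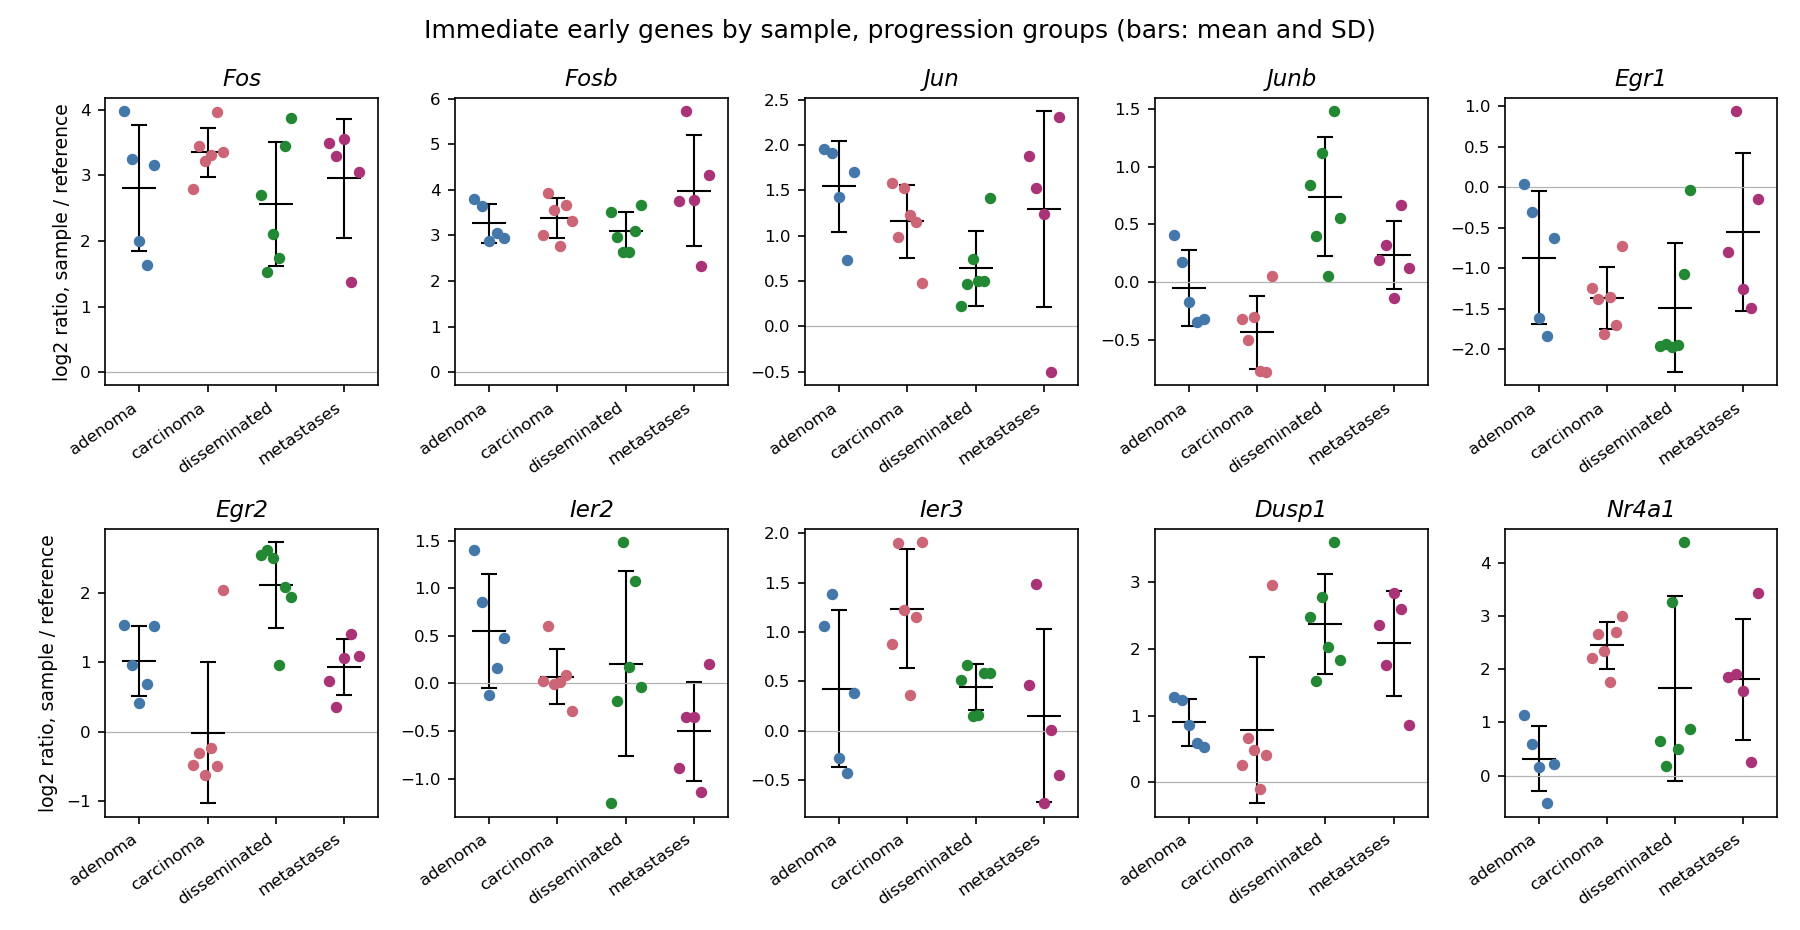
Log2 ratio of sample to reference (y axis) of each of the 10 members in the 5 adenomas, 6 carcinomas, 6 disseminated samples and 5 metastases (x axis); each point is a sample, and the black bars are the mean and SD. Egr2 and Dusp1 of carcinoma replicate 6, at 2.04 and 2.96, lie above the other 5 carcinomas, and Egr1 lies low in 4 of the 6 disseminated samples.

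Of the AP-1 subunits among the members, Junb was the one called with all samples. Junb, a JUN family partner that often restrains JUN, had log2 ratios from -0.78 through a median of -0.41 to 0.05 in carcinomas and from 0.05 through 0.70 to 1.48 in disseminated cells. Its adenoma values were 0.40, 0.18, -0.18, -0.35 and -0.32, and its metastasis values 0.19, 0.32, -0.14, 0.67 and 0.12. Of the 6 disseminated samples 5 lay above every carcinoma, and the lowest, replicate 4, lay beside the highest carcinoma, which was replicate 6. Junb was 1.18 ± 0.21 (SE) higher on the log2 scale in disseminated cells than in carcinomas, a 2.26-fold difference (adjusted p = 0.000776), and 1.28 higher without carcinoma replicate 6. Its second probe gave 1.22 ± 0.22. Junb was 0.79 ± 0.22 higher in disseminated cells than in adenomas (adjusted p = 0.0181) and 0.67 ± 0.22 higher in metastases than in carcinomas (adjusted p = 0.0375), both under 2-fold and so not called; its second probe gave 0.50 and 0.55, with adjusted p = 0.148 and 0.107. These groups shared slides, and the differences within the 3 slides were 0.67, 1.37 and 0.40 for the former and 0.63, 0.74 and 0.68 for the latter. Over the alternative settings described below, the former change ran from 0.53 to 0.87, with adjusted p up to 0.144 in the tests of those settings. The latter depended more on the setting and ran from 0.098 to 0.70, with adjusted p up to 0.842.

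Fos and Fosb, which pair with JUN proteins to form AP-1, did not follow Junb. Fos, on 10 spots per array, had carcinoma log2 ratios from 2.80 through 3.33 to 3.96 and disseminated ratios from 1.52 through 2.41 to 3.88. Its metastasis values were 3.49, 3.29, 3.55, 1.38 and 3.05, the low one being replicate 4, and its adenoma values 3.98, 3.26, 2.00, 1.64 and 3.16. The groups overlapped in all 6 comparisons, and disseminated minus carcinoma was -0.78 with a 95% interval from -1.73 to 0.16. Fosb was between 2.34 and 5.73 in all progression samples, highest in metastases replicate 2 and lowest in metastases replicate 4. Metastases minus disseminated cells was 0.90 ± 0.40 for Fosb (adjusted p = 0.15); without metastases replicate 4 it was 1.31 and called (adjusted p = 0.0144). Without that replicate Fosb was also called higher in metastases than in adenomas, by 1.13 (adjusted p = 0.0261), and than in carcinomas, by 1.02 (adjusted p = 0.0442). With carcinoma replicate 6 left out as well, the change against carcinomas was 1.005 and was not called. Over all single samples left out, the change in metastases ran from 0.28 to 1.13 against adenomas and from 0.17 to 1.02 against carcinomas. Against disseminated cells it ran from 0.46 to 1.31.

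Jun, the founding member of its family and the main partner of FOS proteins, did not share the rise of Junb. Jun had disseminated log2 ratios from 0.22 through 0.50 to 1.42, against adenoma values of 1.95, 1.91, 1.43, 0.73 and 1.71, so that 4 of 6 disseminated samples lay below every adenoma. The difference of -0.90 ± 0.37 did not pass adjustment (adjusted p = 0.0933, 95% interval -1.68 to -0.13). Metastases ranged from -0.51 in replicate 4 to 2.31 in replicate 5, and metastases minus disseminated cells was 0.65 ± 0.37 (adjusted p = 0.274). Without metastases replicate 4 it was 1.10 and called (adjusted p = 0.0115). Over all single samples left out it ran from 0.40 to 1.10, with adjusted p up to 0.562. Carcinoma replicate 6, at 0.48, was the lowest carcinoma.

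Egr2, a zinc finger factor of the EGR family that is also used in myeloid and Schwann cells, gave the largest called change of the members between disseminated cells and carcinomas. Egr2, on 10 spots per array, had carcinoma log2 ratios of -0.62 at the lowest and -0.40 at the median, with replicate 6 at 2.04, and disseminated ratios from 0.97 through 2.29 to 2.61. Adenomas had 1.53, 0.96, 0.40, 0.68 and 1.53, and metastases 0.74, 0.35, 1.06, 1.41 and 1.08. Every disseminated sample lay above carcinomas 1 to 5, and replicate 6 lay inside the disseminated range. Egr2 was 2.12 ± 0.39 (SE) higher in disseminated cells, 4.35-fold (adjusted p = 0.000798), and 2.53 higher without carcinoma replicate 6 (adjusted p = 7.04e-06). It was 1.09 ± 0.40 higher in disseminated cells than in adenomas, which missed the threshold (adjusted p = 0.0655), and the differences on the 3 slides they shared were 1.13, 1.05 and 1.38. With carcinoma replicate 6 and metastases replicate 4 both left out the same 1.09 was called (adjusted p = 0.00689), and so was metastases minus disseminated cells, at -1.30 (adjusted p = 0.00488). Carcinoma minus adenoma was -1.04 ± 0.40 (adjusted p = 0.102) and, without carcinoma replicate 6, -1.45 and called (adjusted p = 0.00365); metastases minus carcinomas was 0.94 ± 0.40 with it (adjusted p = 0.103) and 1.36 and called without it (adjusted p = 0.0018).

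Egr1, the EGR factor most used as a readout of ERK signaling, was below the reference in 20 of 22 progression samples. Its values ran from -1.98 through -1.94 to -0.03 in disseminated cells and from -1.81 through -1.37 to -0.73 in carcinomas, and metastases had -0.80, 0.94, -1.25, -1.49 and -0.15. Of the disseminated samples 4 lay below every carcinoma, but disseminated replicate 6 lay above all of them. The difference was -0.12 with a 95% interval from -0.995 to 0.757, so a change of up to about that size in either direction could not be seen with these samples. Leaving out single samples gave -0.41 to 0.01. Metastases minus disseminated cells was 0.94 ± 0.44 (adjusted p = 0.173), and 0.56 to 1.23 over single samples left out. Without disseminated replicate 6 it was 1.23 and called (adjusted p = 0.0384).

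Dusp1, the phosphatase that dephosphorylates p38, JNK and ERK, was high in disseminated cells and in most metastases. Dusp1 had log2 ratios from 1.52 through 2.26 to 3.60 in disseminated cells, 1.28, 1.24, 0.86, 0.58 and 0.52 in adenomas and 2.36, 1.77, 2.84, 2.60 and 0.86 in metastases. Carcinomas 1 to 5 were at 0.26, 0.66, 0.48, -0.10 and 0.41, and carcinoma replicate 6 was at 2.96. All 6 disseminated samples lay above all 5 adenomas; 9.13% of all genes did not overlap between these groups. Dusp1 was 1.48 ± 0.47 (SE) higher in disseminated cells than in adenomas, 2.79-fold (adjusted p = 0.0327), and by 1.23, 2.31 and 0.92 within the 3 slides. Leaving out disseminated replicate 1, 3 or 5 or adenoma replicate 3, 4 or 5 ended this call, with changes from 1.24 to 1.47, and without adenoma replicates 3 and 4 it was 1.36 (adjusted p = 0.144). Against carcinomas Dusp1 was 1.60 ± 0.45 higher (adjusted p = 0.0131), and 2.03 higher without carcinoma replicate 6 (adjusted p = 0.000295). Metastases against carcinomas gave 1.31 ± 0.47, which missed the threshold (adjusted p = 0.0525) and passed it at 1.74 without carcinoma replicate 6 (adjusted p = 0.00184).

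**Figure D2:**
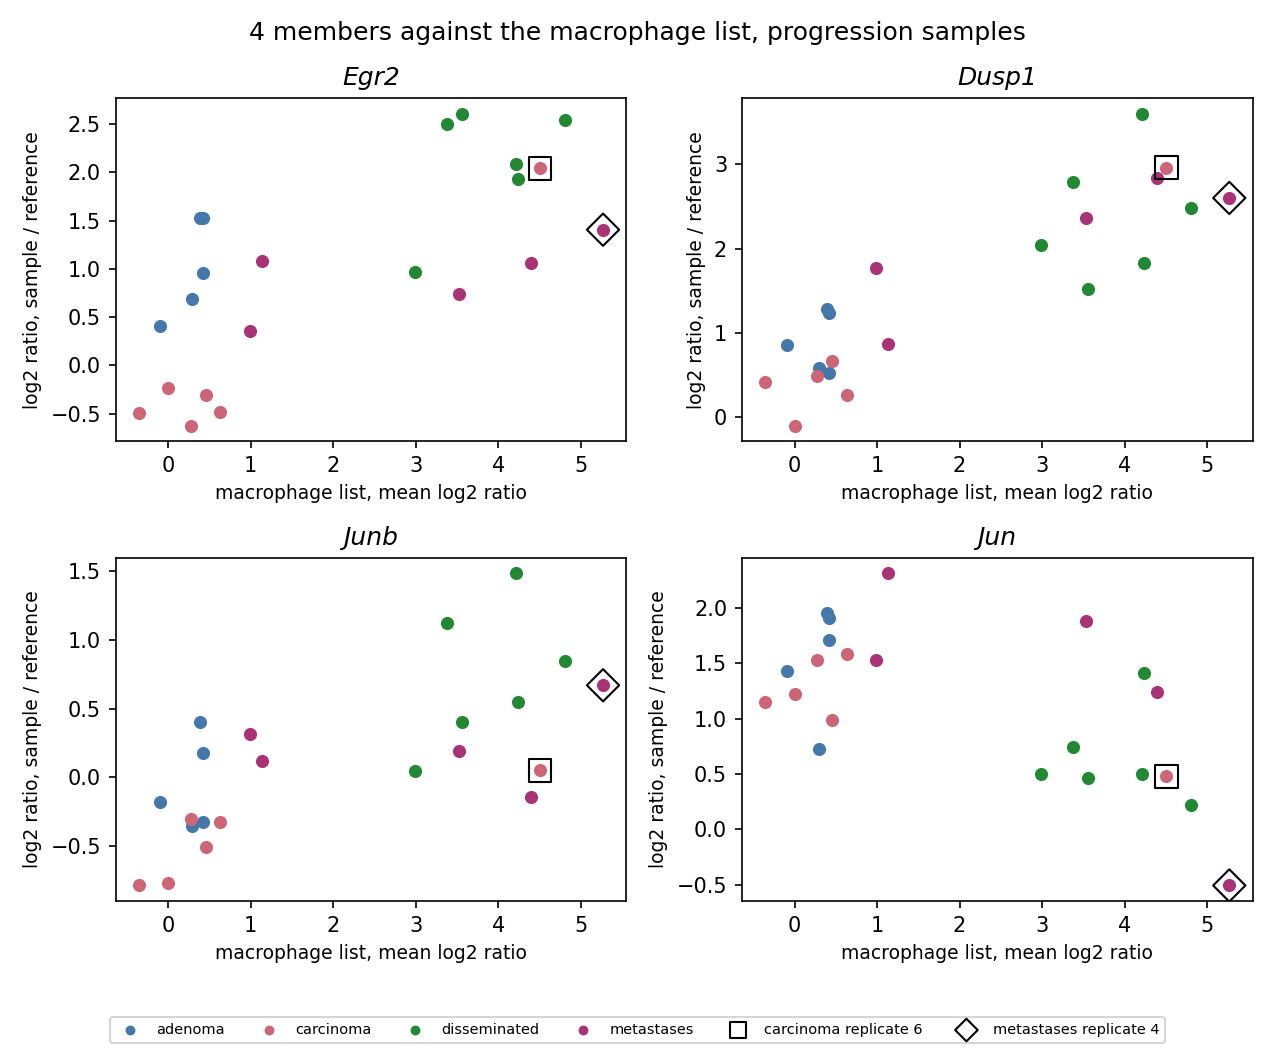
Log2 ratio of Egr2, Dusp1, Junb and Jun (y axes) against the mean log2 ratio of 12 macrophage markers (x axis) in the 22 progression samples, one point a sample, with carcinoma replicate 6 in a square and metastases replicate 4 in a diamond. Carcinoma replicate 6, at 4.51 on the x axis, lies with the disseminated cells for Egr2 and Dusp1 and away from carcinomas 1 to 5.

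Nr4a1, an orphan nuclear receptor, was the member called between carcinomas and adenomas. These groups were on different slides scanned on different days, so group and slide cannot be told apart here. Its adenoma log2 ratios were 1.15, 0.59, 0.16, -0.52 and 0.21, and its carcinoma ratios ran from 1.77 through 2.51 to 2.997. All 6 carcinomas lay above all 5 adenomas, and 10.6% of all genes did not overlap between these groups. Nr4a1 was 2.13 ± 0.65 (SE) higher in carcinomas, 4.38-fold (adjusted p = 0.0389). The call was at the edge of the threshold: leaving out any carcinoma but replicate 4, or any adenoma but replicate 1, ended it, with changes from 1.92 to 2.20. Carcinoma replicate 6, the one with the high macrophage mean, was the highest carcinoma for Nr4a1, and without it the change was 2.02 (adjusted p = 0.0636). Without adenoma replicates 3 and 4 it was 1.80 (adjusted p = 0.177). With Aquantile scaling, and likewise with no normalization between arrays, it was 1.77 (adjusted p = 0.0859), and with the deposited log2 ratios it was 1.88 (adjusted p = 0.0542). In this comparison 2 of 9 fibroblast markers and 3 of 10 T and NK cell markers were called lower. Called higher were 1 of 9 endothelial, 1 of 9 alveolar macrophage, 1 of 5 erythroid and 1 of 14 mammary epithelial markers. The endothelial mean was 0.10 ± 0.14 (SD) in adenomas and 0.80 ± 0.32 in carcinomas, and the alveolar macrophage mean 0.13 ± 0.08 and 0.83 ± 0.45. The part of these cells was not tested. In disseminated cells Nr4a1 was split, with 0.19, 0.50, 0.64 and 0.87 in replicates 2, 4, 1 and 6 and 3.26 and 4.39 in replicates 3 and 5. Those replicates, 3 and 5, also had the lowest mammary epithelial means of the disseminated samples, 0.44 and 0.63, and shared a slide.

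Ier3, which encodes a stress-inducible regulator of cell survival, was the member called lower. Its carcinoma log2 ratios ran from 0.36 through 1.19 to 1.91, and metastases had 0.46, 1.49, -0.74, 0.01 and -0.45. Of the 5 metastases 3 lay below every carcinoma, and replicate 2 lay among the highest. Ier3 was -1.08 ± 0.38 (SE) in metastases relative to carcinomas, 2.12-fold lower (adjusted p = 0.0457). The within-slide differences were -1.72, -0.82 and -0.05, and the change was -0.95 without carcinoma replicate 6 and -0.91 without it and metastases replicate 4, neither of which was called (adjusted p = 0.0806 and 0.132). With slide as a fixed block it was -0.96 and not called (adjusted p = 0.0601). Leaving out carcinoma replicate 1, 2, 3 or 5 or metastases replicate 1, 3, 4 or 5 also ended the call.

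Ier2, an immediate early nuclear protein, depended on the probe. Its bright probe, well above background on all 38 arrays, was between -1.26 and 1.49 in progression samples, both ends being disseminated samples. Metastases minus adenomas was -1.06 ± 0.40 with this probe (adjusted p = 0.0511) and 0.33 ± 0.36 with the dim one, which was above background on 21 of 22 arrays; without metastases replicate 4 the bright probe gave -0.90 (adjusted p = 0.126), and without adenoma replicates 3 and 4 it gave -1.42 and was called (adjusted p = 0.0383). The probes also had opposite signs for carcinomas against adenomas, -0.48 and 0.62, and for disseminated cells against adenomas, -0.35 and 0.79, and no direction is given for Ier2 there. The Junb probes differed in sign for metastases against adenomas only, 0.29 and -0.17, where neither was called.

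**Figure D3:**
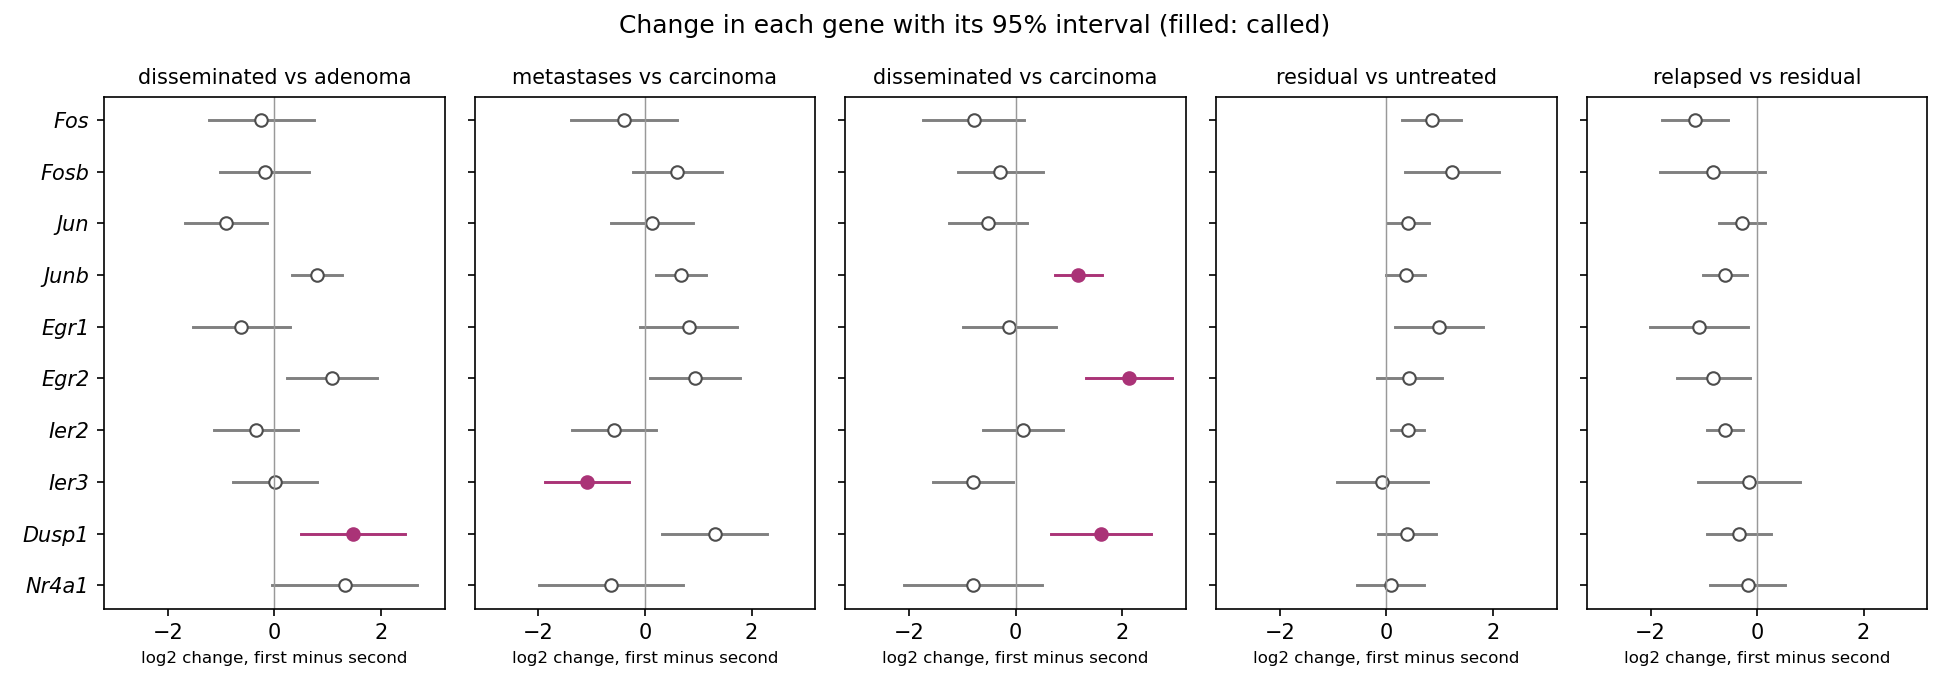
Log2 change of each member (x axes) with its 95% interval from limma in 5 comparisons, written as first minus second; filled points are called. Egr2, Junb and Dusp1 are called higher in disseminated cells than in carcinomas, and in both chemotherapy panels no point is filled although 9 and 10 of the 10 points lie on 1 side of 0.

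Other genes of the same response had calls in both directions between disseminated cells and carcinomas, where 11.1% of all genes were called. Of 11 further AP-1 and related bZIP genes, 1 was called higher and 1 lower in disseminated cells than in carcinomas, Batf, a lymphoid and myeloid AP-1 partner, by 3.09 ± 0.83 (SE) and Cebpd by -1.87 ± 0.61. Of 17 other immediate early transcription factors 4 were higher and 3 lower. Bhlhe40, a circadian repressor, rose by 2.03 ± 0.34, and Egr4, of the same family as Egr1 and Egr2, fell by 1.96 ± 0.47. Egr4 was also lower in disseminated cells than in adenomas, by -2.99 ± 0.49 (adjusted p = 0.000804), and lower in metastases than in carcinomas, by -2.16 ± 0.49. The median log2 changes of these lists between disseminated cells and carcinomas were 0.24 and 0.33 beside -0.06 for all genes. Without the replicates that stand apart 1 of 11 was higher and 3 were lower, and of the 17 again 4 were higher and 3 lower.

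Inhibitors and secreted targets had calls in each of the 6 progression comparisons. Of 30 feedback inhibitors, 5 were called higher and 3 lower in disseminated cells than in adenomas, where 9.69% of all genes were called, led by the NF-κB inhibitors Nfkbia (2.84 ± 0.68) and Tnfaip3 (2.41 ± 0.65), with Dusp8 (-2.16 ± 0.52) and Spry2 (-1.57 ± 0.51) lower. In metastases against carcinomas, where 10.1% of all genes were called, 9 were higher and 1 lower, with Dusp2 at 3.19 ± 0.99 and Tnfaip3 at 2.81 ± 0.65. In carcinomas against adenomas 0 inhibitors were higher and 2 lower, and in metastases against disseminated cells 1 was higher and 1 lower. Of 13 growth factors and secreted targets, 5 were higher and 1 lower in disseminated cells than in adenomas. Il6 rose by 4.85 ± 0.79 and the neutrophil chemokine Cxcl2 by 4.56 ± 0.70, while Ccn2, a matrix protein, fell by 2.45 ± 0.73. In metastases 8 of the 13 were higher and 0 lower than in adenomas, where 14.5% of all genes were called, 5 higher and 0 lower than in carcinomas, and 2 higher and 0 lower than in disseminated cells, where 7.5% were. The mean log2 ratio of the 13 was 0.57 ± 0.47 (SD, n = 5) in adenomas, 1.21 ± 0.60 (n = 6) in carcinomas, 1.65 ± 0.62 (n = 6) in disseminated cells and 2.42 ± 0.31 (n = 5) in metastases. In carcinomas against adenomas, where 3.23% of all genes were called, 3 of the 13 were higher, among them Cxcl1 at 2.999 ± 0.780, and 1 was lower, Thbs1 at -1.71 ± 0.50. Myc, a growth-related immediate early gene, fell by 1.97 ± 0.33 in carcinomas relative to adenomas (adjusted p = 0.00127). These genes are also expressed by macrophages and neutrophils, and their markers were called higher in disseminated cells than in adenomas for 10 of 12 macrophage, 8 of 9 alveolar macrophage and 8 of 12 neutrophil markers. In metastases against adenomas 8 of 12, 6 of 9 and 5 of 12 were higher and 1 neutrophil marker lower, and in metastases against carcinomas 3 of 12, 5 of 9 and 0 of 12 were higher. In metastases against disseminated cells 0 were higher, and 0 of 12, 4 of 9 and 7 of 12 were lower. Among other markers, 6 of 9 endothelial, 5 of 9 lung epithelial and 2 of 5 erythroid ones were higher in disseminated cells than in adenomas. There 4 of 14 mammary epithelial markers were lower. In metastases against adenomas 5 of 9 fibroblast and 3 of 14 mammary epithelial markers were lower, and 3 of 9 lung epithelial and 2 of 9 endothelial ones higher. The part of these cells in these changes was not tested. With carcinoma replicate 6 and metastases replicate 4 both left out, 8 of 30 inhibitors were called higher and 3 lower in disseminated cells than in adenomas and 10 higher and 1 lower in metastases than in carcinomas. Of the 13 secreted targets 6 were then higher and 1 lower in disseminated cells than in adenomas, and 2 higher and 0 lower in carcinomas than in adenomas, where Thbs1 was at -1.62 (adjusted p = 0.0579). In metastases 7 of the 13 were then higher than in adenomas and 6 higher than in carcinomas. The macrophage, alveolar macrophage and neutrophil markers higher in metastases than in carcinomas were then 7 of 12, 4 of 9 and 3 of 12. In metastases against disseminated cells 4 of 12, 5 of 9 and 7 of 12 of these markers were then lower, and 1 neutrophil marker was higher. There 10 of 14 mammary epithelial markers were then higher, against 1 of 14 with all samples. The counts without these replicates have no share of all genes beside them.

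Of 22 upstream kinases and factors, 4 were called higher and 1 lower in disseminated cells than in carcinomas, where 11.1% of all genes were called. Braf, a kinase that activates the ERK cascade, rose by 1.64 ± 0.26, and Elk3, a ternary complex partner of SRF, by 1.57 ± 0.32, while Hras fell by 1.09 ± 0.22. Heat shock genes also respond to handling stress. Of 14, 5 were called higher in metastases than in carcinomas, where 10.1% of all genes were called, and 6 higher than in disseminated cells, where 7.5% were, with the chaperone Hspa8 at 2.28 ± 0.44 and 1.96 ± 0.44. Against adenomas 5 were higher in metastases, where 14.5% of all genes were called, and 0 were called in disseminated cells, where 9.69% were. With carcinoma replicate 6 and metastases replicate 4 both left out, 6 heat shock genes were higher in metastases than in carcinomas and 4 higher than in adenomas. Their mean log2 ratio was 0.85 ± 0.41 (SD, n = 5) in metastases and -0.20 ± 0.68 (n = 6) in disseminated cells, where replicate 6 was at 1.03 and the others between -0.98 and -0.06. Disseminated replicate 6 was also the one with the highest Fos and Egr1 of its group, 3.88 and -0.03.

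The chemotherapy experiment showed a different picture: no member was called, and most differences had the same sign. Residual exceeded untreated tumors for 9 of 10 members, where 48.8% of all genes did, and the median of the 10 log2 changes was 0.40 beside -0.004 for all genes; 0 members were called, where 0.101% of genes were, and 5 had an unadjusted p below 0.05, where 9.06% of genes did. In relapsed tumors all 10 were lower than in residual tumors, where 45% of all genes were, with a median of -0.60 beside 0.02 for all genes; 0 were called, where 0.215% of genes were, and 5 had an unadjusted p below 0.05, where 7.72% of genes did. Both comparisons share the 6 residual tumors. The members also varied together within groups, with a median Pearson correlation of 0.61 between pairs of them. The counts of members are therefore not counts of independent genes. Relapsed against untreated tumors gave 3 higher and 7 lower, 0 called where 0.0104% of genes were, and 0 with an unadjusted p below 0.05, where 7.64% of genes had one. The mean over the 10 members was 1.36 ± 0.32 (SD, n = 6) in untreated, 1.87 ± 0.43 (n = 6) in residual and 1.26 ± 0.48 (n = 4) in relapsed tumors.

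**Figure D4:**
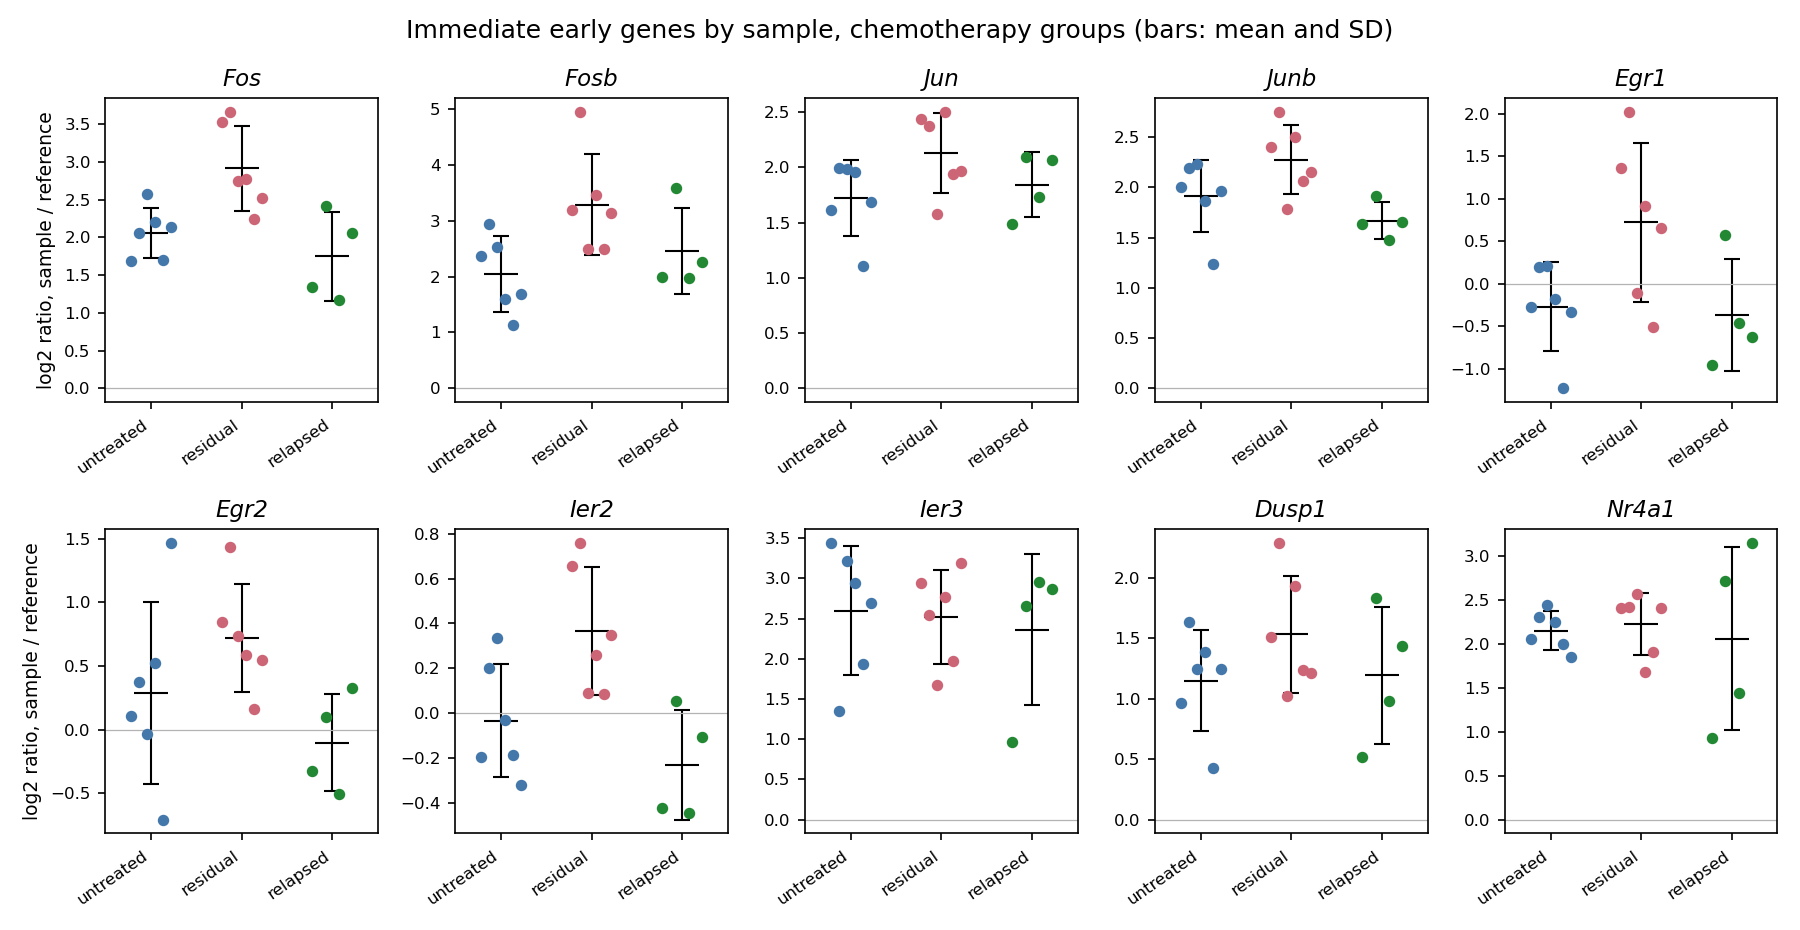
Log2 ratio of sample to reference (y axis) of each member in the 6 untreated, 6 residual and 4 relapsed tumors (x axis); each point is a sample, and the black bars are the mean and SD. For Fos the residual samples run from 2.25 to 3.67 and the relapsed from 1.17 to 2.42. The residual mean minus the untreated mean is -0.08 for Ier3 and 0.08 for Nr4a1.

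Fos and Fosb, with Egr1, had the largest differences between residual and untreated tumors, none of them called. Fos had log2 ratios from 1.69 through 2.10 to 2.57 in untreated tumors, from 2.25 through 2.76 to 3.67 in residual tumors and 1.35, 2.42, 1.17 and 2.06 in relapsed tumors. Of the 6 residual tumors 4 lay above every untreated tumor, and 3 of 4 relapsed tumors lay below every residual tumor. Fos was 0.85 ± 0.26 (SE) higher in residual than in untreated tumors (adjusted p = 0.302) and -1.17 ± 0.29 in relapsed relative to residual tumors (adjusted p = 0.178). Fosb ran from 1.13 through 2.03 to 2.94 in untreated and from 2.49 through 3.17 to 4.95 in residual tumors, and was 2.00, 3.59, 1.98 and 2.25 in relapsed tumors. The residual change of Fosb was 1.24 ± 0.42, with a 95% interval from 0.36 to 2.12 before adjustment (adjusted p = 0.346). Residual replicate 2 was the highest sample for both genes, and residual replicates 3 and 5 were the lowest of their group for Fosb.

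Jun and Junb differed less. Jun was 0.41 ± 0.18 higher and Junb 0.36 ± 0.17 higher in residual than in untreated tumors, and each had 3 of 6 residual samples above every untreated sample. Relapsed minus residual was -0.61 ± 0.19 for Junb, and the relapsed values were 1.63, 1.91, 1.48 and 1.65 against 1.78 to 2.75 in residual tumors (adjusted p = 0.387). Both Junb probes had the same sign in these comparisons, 0.36 and 0.38 in residual and -0.61 and -0.73 in relapsed tumors.

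Of the EGR factors, Egr1 ran from -1.23 through -0.23 to 0.21 in untreated tumors and from -0.51 through 0.79 to 2.03 in residual tumors, and was -0.96, 0.57, -0.46 and -0.63 in relapsed tumors. Of the residual tumors 4 lay above every untreated tumor, and the other 2 lay within the untreated range. The changes were 0.99 ± 0.39 in residual tumors (adjusted p = 0.451) and -1.09 ± 0.43 in relapsed relative to residual tumors (adjusted p = 0.547). Egr2 changed by 0.43 ± 0.29 and -0.82 ± 0.32. Ier2 was the member whose relapsed and residual values did not overlap, -0.45 to 0.05 against 0.08 to 0.76, where 1.66% of all genes did not overlap; its change was -0.60 ± 0.16 (adjusted p = 0.227). This holds for the bright probe; the dim one, above background on 15 of 16 arrays, overlapped, with -1.15 to -0.55 in relapsed and -1.28 to 0.09 in residual tumors and a change of -0.28 ± 0.24.

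Ier3, Dusp1 and Nr4a1 did not separate the groups. Ier3 was between 0.97 and 3.44 in all 16 samples, and residual minus untreated was -0.08 with a 95% interval from -0.93 to 0.77. Dusp1 changed by 0.38 ± 0.25 in residual tumors, and Nr4a1 by 0.08 ± 0.30. Nr4a1 was most spread in relapsed tumors, at 0.93, 2.71, 1.44 and 3.15. For residual against untreated tumors the 95% intervals leave room for changes of close to 2-fold for Ier3 and Dusp1 and of less for Nr4a1. In relapsed tumors the Ier3 interval was wider, from -1.18 to 0.72 against untreated and from -1.11 to 0.80 against residual tumors.

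The slides of the chemotherapy arrays were not balanced over the groups, so values within slides were compared where a slide held both groups. On the slide with 2 residual and 1 untreated tumor, 9 of 10 members were higher in the residual tumors, Fos by 1.91 and Egr1 by 1.97; these were residual replicates 1 and 2, the highest of their group for Fos, Egr1 and the macrophage mean. On the slide with 2 relapsed and 1 residual tumor all 10 were lower in the relapsed tumors, Fos by -0.64 and Ier3 by -1.38. On the slide with 2 relapsed and 1 untreated tumor 5 members were higher and 5 lower in the relapsed tumors, Egr2 by -1.55. These differences rest on a single tumor on one side and have no test. In the fit with slide as a fixed block residual exceeded untreated tumors for all 10 members and 0 were called. Fos was then at 1.31 (adjusted p = 0.652), Egr1 at 1.53 (adjusted p = 0.685), Ier2 at 0.79 (adjusted p = 0.519), Jun at 0.65 (adjusted p = 0.751), Dusp1 at 0.62 (adjusted p = 0.841) and Nr4a1 at 0.58 (adjusted p = 0.867). For relapsed against residual tumors that fit had all 10 below 0 and 0 called, with Egr2 at -1.30 (adjusted p = 0.653) and Ier3 at -0.62 (adjusted p = 0.918). For relapsed against untreated tumors it turned the sign of Fos (0.07), Egr1 (0.23), Ier2 (0.15) and Nr4a1 (0.22), which were below 0 without the block. The other members kept their sign there, and none was called.

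In the chemotherapy groups the macrophage mean was 1.04 ± 1.25 (SD, n = 6) in untreated, 0.40 ± 0.85 (n = 6) in residual and 0.15 ± 0.71 (n = 4) in relapsed tumors, and 1 of 12 markers was higher in residual than in untreated tumors, none of them called. Relapsed exceeded residual tumors for 2 of these 12, with a median log2 change of -0.27 and 0 called. Untreated replicates 1, 2 and 3 had 2.13, 2.45 and 1.92, and untreated replicates 4, 5 and 6 lay between -0.18 and 0.06. Within the residual group, replicates 1 and 2, which had the highest Fos, Egr1 and Ier2, also had the highest macrophage means, 1.14 and 1.70 against -0.43 to 0.31 in the other residual tumors; the part of these cells in the values was not tested. The mean of 10 T and NK cell markers was -0.09 ± 0.08 (SD, n = 6) in untreated, 0.07 ± 0.14 (n = 6) in residual and -0.20 ± 0.08 (n = 4) in relapsed tumors. Residual exceeded untreated tumors for 8 of these 10 and relapsed exceeded residual tumors for 3, with 0 called. Endothelial markers had means of 0.24 ± 0.28 (SD, n = 6) in the untreated group, 0.01 ± 0.12 (n = 6) in the residual group and 0.41 ± 0.29 (n = 4) in the relapsed group; 1 of 9 was higher in residual than in untreated and 9 of 9 higher in relapsed than in residual tumors, with 0 called. For B cell markers residual exceeded untreated tumors in 0 of 6. Many markers of these lists were not well above background. The median number that was, in untreated, residual and relapsed tumors, was 5, 7 and 4.5 of 10 for T and NK cells. It was 3, 2.5 and 3.5 of 6 for B cells and 6.5, 6 and 6.5 of 9 for endothelium. The part of these cells was not tested. Heat shock genes had means of 0.78 ± 0.16, 0.87 ± 0.14 and 0.87 ± 0.15 in the 3 groups, with 0 of 14 called in any comparison and 9 of 14 higher in residual than untreated tumors (median 0.07). Some pathway lists had the sign of the members, without calls: 25 of 30 feedback inhibitors, 12 of 17 other transcription factors and 8 of 11 AP-1 partners were higher in residual tumors, with medians of 0.29, 0.38 and 0.44. Of growth factors and secreted targets 6 of 13 and of upstream kinases 8 of 22 were higher, with medians of -0.04 and -0.07.

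How the members varied between samples of the same group differed between the experiments. After each group's mean was removed, the Pearson correlation between 2 members had a median of 0.61 over the 45 pairs in the chemotherapy experiment (16 samples), from 0.16 to 0.89, and 27 pairs were above 0.5. In the progression experiment (22 samples) the median was 0.29, from -0.42 to 0.76, with 12 pairs above 0.5 and 6 below 0. Fosb and Egr1 were the closest pair of the chemotherapy samples, at 0.89, and Ier2 and Nr4a1 the closest of the progression samples, at 0.76. Jun and Dusp1 went from 0.88 in the chemotherapy samples to -0.42 in the progression samples. The latter value includes carcinoma replicate 6, with Jun at 0.48 and Dusp1 at 2.96, and metastases replicate 4, with -0.51 and 2.60. These are descriptions: samples share slides, and every array shares the reference RNA. The 10 spots of Fos, Jun and Egr2 had a median SD within an array of at most 0.08 on the log2 scale, which covers noise between spots but not labeling, amplification or hybridization; each probe of the other 7 members had 1 spot.

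**Figure D5:**
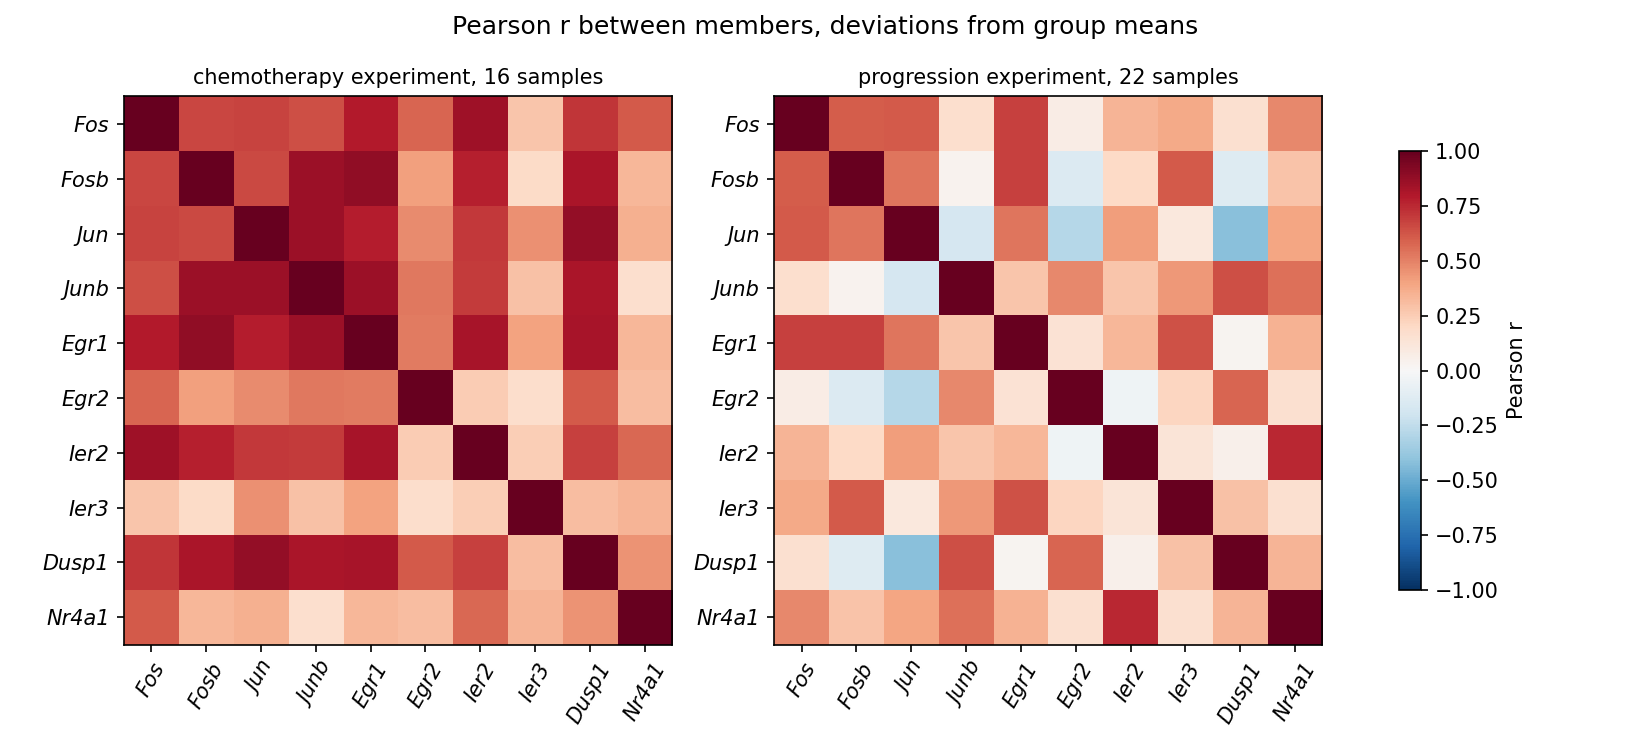
Pearson correlation (color scale) between the members over the 16 chemotherapy samples (left) and the 22 progression samples (right), after each group's mean was subtracted. All 45 pairs are above 0 on the left; on the right Jun is below 0 with Junb, Egr2 and Dusp1.

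The genes whose pattern was most like the mean of the 10 members were named by their Pearson correlation with it over the samples of an experiment. Over the 16 chemotherapy samples these were Csrnp1 at 0.95, Smad7 and Maff at 0.90, and Per2 and Elf3 at 0.89. Over the 22 progression samples they were Nedd9 and Clk1 at 0.79 and Gadd45a, Trak2 and Haus2 at 0.75. Csrnp1, itself induced early by growth signals, was also called higher in metastases than in carcinomas, by 1.55 ± 0.37 (SE).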

How the data were processed

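The authors read the scanned array images with Agilent Feature Extraction 10.7, per the labels, and deposited a scanner file per array with spot intensities and flags, as well as a table of log2 ratios. No dyes were swapped. From the deposited intensity columns (mean signal and median background of both channels), background was corrected by normexp with an offset of 50, arrays were normalized by loess and then by quantiles between the arrays of an experiment, as the study's methods name, in limma 3.58.1 (R 4.3.3). Control spots and spots flagged as outliers were left out, spots of a probe were averaged, and a gene was read from its brightest probe. Probes were named by accession through RefSeq (22951) or by the file (18223). The number of arrays limits the precision; between 48.4% and 78.9% of spots were well above background. limma was fitted on all groups of an experiment over 28786 genes with no covariate, with Benjamini-Hochberg adjustment and a threshold of 0.05 and 2-fold. The deposited log2 ratios, which the authors normalized, correlated with the scanner ratios at 0.96 or more in every array and served as an alternative. Scaling, filters, slide and replicate blocks, t-tests and leaving out samples were the other alternatives. Named genes were all members, the 2 largest called rises and falls of each of 17 lists, of which examples are printed, and the 5 genes most like the members. The members and lists were chosen with earlier results of these data known. The tests were tried on simulated data with known changes.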

Additional observations from a re-analysis of the deposited data

Results flagged for a closer look

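Of 70 member and group combinations with 4 to 10 samples 5 held a sample far from the others of its group by Dixon's test, and chance gives about 1 in 20. Egr2 of carcinoma replicate 6 was at 2.04, where the next carcinoma was at -0.23. Dusp1 of the same sample was at 2.96, where the next was at 0.66. Fos of metastases replicate 4 was at 1.38, where the next lowest was at 3.05. Ier3 of relapsed replicate 1 was at 0.97, where the next lowest was at 2.65. Junb of untreated replicate 5 was at 1.23, where the next lowest was at 1.86. The macrophage and mammary epithelial values of carcinoma replicate 6 and metastases replicate 4 are given with the results, and their part in these values was not tested.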

How the results depend on the processing

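In the chemotherapy experiment 0 members were called in all 3 comparisons under all 16 alternatives and without any single tumor. The 3 calls between disseminated cells and carcinomas, Egr2, Junb and Dusp1, held without any single sample (3 to 3 called) and numbered 2 or 3 under the alternatives; Dusp1 was lost with an equal-variance t-test and at an adjusted p below 0.01, Egr2 and Junb under none. The other counts were less stable. For carcinomas against adenomas the count fell from 1 to 0 with Aquantile scaling, with no normalization between arrays, with the deposited log2 ratios, at an adjusted p below 0.01, and without adenoma replicates 3 and 4, and was 0 to 1 without single samples; without carcinoma replicate 6, alone or with metastases replicate 4, it was 1, but Nr4a1 was lost and Egr2 was called lower in its place. For disseminated cells against adenomas it was 2 with Aquantile scaling, no normalization between arrays, the deposited ratios, a fit of only the groups compared, and without carcinoma replicate 6 and metastases replicate 4, where Egr2 was added; it was 0 at an adjusted p below 0.01 and without adenoma replicates 3 and 4, and 0 to 2 without single samples. For metastases against carcinomas it was 2 with processed signals, dim probes left out, slide as a random block and both replicates left out. With both replicates left out the 2 calls were higher, and Ier3 was lost. The count was 0 with only the groups compared, the t-test and an adjusted p below 0.01, and 0 to 2 without single samples. With slide as a fixed block it was 1, but Ier3 was lost and Dusp1 was called in its place (adjusted p = 0.0408). For metastases against adenomas it was 1 with median centring, Aquantile, no normalization between arrays, deposited ratios, dim probes left out, both replicates left out and adenoma replicates 3 and 4 left out, 2 with only the groups compared, and 0 to 2 without single samples. For metastases against disseminated cells it was 2 with Aquantile and with no normalization between arrays, 1 with deposited ratios and dim probes left out, 3 with both replicates left out, and 0 to 3 without single samples. The alternatives that left out 2 replicates were chosen after seeing the data. No called member changed sign in any of these. With the replicate number as a block the count was 0 for disseminated cells against adenomas, 3 for metastases against carcinomas and 1 for metastases against disseminated cells; the numbers only name samples, since 14 of 45 same-numbered pairs had deviations correlated above 0.1 (-0.41 to 0.42), and no comparison had all its pairs above it. The causes were not tested. Slide as a fixed block could not be fitted for the 4 progression comparisons across slides. Over all genes, counts of calls moved by more than 1.5 times under some alternatives: from 29 to between 1 and 13 for residual against untreated tumors, from 3 to 0 or 1 for relapsed against untreated, from 62 to between 26 and 35 for relapsed against residual, from 930 to 1415 with processed signals for carcinomas against adenomas, and with the t-test from 2790 to 1746 for disseminated cells against adenomas and from 2159 to 170 for metastases against disseminated cells. At an adjusted p below 0.01 the counts for these progression comparisons were 434, 1566 and 1193, and that for metastases against carcinomas went from 2903 to 1844.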
